A study of Homo sapiens with 9 samples.

Results

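The regions described here are places in the genome of RWPE-1 cells where a peak of endogenous GABPA overlapped a peak of FLAG-ERG or FLAG-ETV1 and no peak of the other mapped factors. Peaks of 6 lists that overlapped by at least 1 bp were joined into 24166 regions. Those holding a GABPA peak and an ERG or ETV1 peak, and no ETS1, ETV4 or JUND peak, numbered 466. GABPA met ERG or ETV1 in 592 regions in all and met neither in 7478. These members were selected on measured values, the positions of the called peaks, so the overlap itself is no finding. They were 5.77% of the regions with a GABPA peak (95% interval 5.29 to 6.30%) and 1.93% of all regions. No region held more than 1 peak of any list, so each of the 466 regions stands for 1 GABPA peak. They took in 5.77% of the GABPA list, 7.35% of the ERG list (6.35 to 8.48%) and 4.30% of the ETV1 list (3.90 to 4.75%).

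The data are peak lists from chromatin immunoprecipitation followed by sequencing (ChIP-seq), 1 library per factor. RWPE-1 is an immortalised, non-tumorigenic prostate epithelial line. The GABPA library came from RWPE-1 cells with no retroviral expression and an antibody to GABPA. The ERG and ETV1 libraries came from RWPE-1 cells that expressed FLAG-ERG or FLAG-ETV1 from a retrovirus, and both used the same FLAG antibody. A region in both kinds of list was therefore called in separate cultures, and the data do not show whether 2 proteins were on the same DNA at once. The lists that disqualified a region were ETS1 in RWPE-1 without retroviral expression, and ETV4 and JUND in PC3, a metastatic prostate carcinoma line, also without it. No expression data were at hand to check the lines against markers.

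GABPA is the DNA-binding subunit of the GABP complex, in which it pairs with a GABPB subunit that carries the activating part. It is known for binding the promoters of housekeeping genes, among them genes for mitochondrial and ribosomal functions, through sites with a GGAA core. ERG and ETV1 carry the same kind of DNA-binding domain, the ETS domain, and gene fusions raise their expression in many prostate cancers. Regions that many ETS proteins can occupy are usually called redundant, and regions preferred by some family members are called specific.

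One property of the lists bears on these regions and comes before the results. In 19 of the 478 overlapping pairs of a GABPA and an ETV1 peak, both peaks had the same start and the same end to the base. In 54 of the 478 they had the same start or the same end, 11.3% (8.76 to 14.4%). The other 14 pairs of lists gave 13 such cases among 3537 overlapping pairs, 0.368% (0.215 to 0.628%), and 1 case with both edges the same. The GABPA and ERG lists gave 1 among 225, and the ERG and ETV1 lists, which share the FLAG antibody, gave 0 among 720. The peaks were not of a fixed width. Widths ran from 15 to 501 bp for GABPA and from 91 to 501 bp for ETV1.

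**Figure D1:**
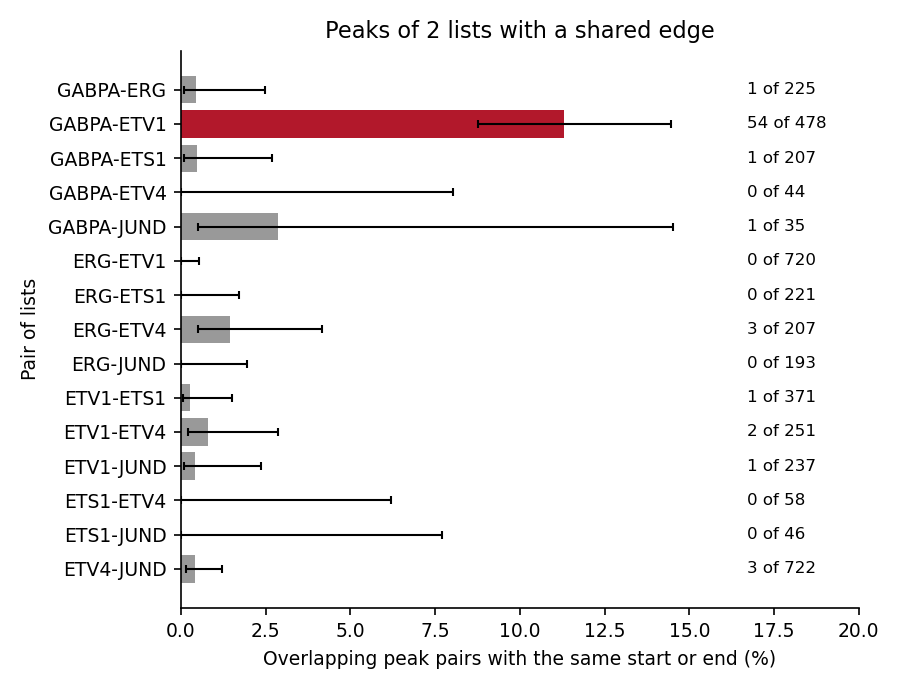
Percent of overlapping peak pairs that have the same start or the same end, for each of the 15 pairs of lists; bars are percentages, lines are Wilson 95% intervals, and the counts stand at the right. The GABPA-ETV1 bar reaches 11.3%, and the widest interval among the other pairs is that of GABPA-JUND, with 1 case among 35.

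Of the 466 regions, 45 had such a shared edge between GABPA and ETV1, 9.66% (7.30 to 12.7%). In 15 of them both edges coincided. The remaining 421 were 5.25% of the GABPA regions without a shared edge (4.78 to 5.76%), and their values are given beside the main results. The median distance between the midpoints of the 2 peaks was 3 bp in the regions with a shared edge (0.5 to 6 bp) and 149.75 bp in the others (132 to 178.5 bp). What produced the shared edges was not tested, nor whether it also bears on GABPA and ETV1 overlaps without one, so the 421 regions are not shown to be free of it.

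ETV1 was the more frequent partner. A total of 296 regions held GABPA with ETV1 and no ERG peak, 63.5% of the 466 (59.1 to 67.8%). A further 90 held GABPA with ERG and no ETV1 peak, 19.3% (16.0 to 23.1%), and 80 held all 3, 17.2% (14.02 to 20.9%). Put together, 80.7% of the regions had an ETV1 peak and 36.5% an ERG peak, and among the 421 without a shared edge 78.6% and 39.2%. Over all 24166 regions, 36.1% had an ETV1 peak and 9.58% an ERG peak. The rule asks for one or the other, so these shares describe the choice and the unequal sizes of the lists, and no preference can be read from them.

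GABPA was found more often where both tagged proteins were than where 1 was. Among regions without ETS1, ETV4 or JUND, GABPA was at 16.6% of the 481 regions with ERG and ETV1 (13.6 to 20.2%). It was at 6.71% of the 1342 regions with ERG and no ETV1 (5.49 to 8.17%) and at 3.93% of the 7526 regions with ETV1 and no ERG (3.52 to 4.40%). The 3 intervals did not overlap. Without the regions with a shared edge the first share was 15.8% (12.8 to 19.3%) and the last 3.42% (3.03 to 3.86%), and the order was the same. These shares come from the overlaps that the rule used, so they are a description. A joined region is also a wider target for an overlap. Regions with ERG and ETV1 alone had a median width of 607 bp, against 479 bp for lone ERG peaks and 482 bp for lone ETV1 peaks. How far width bears on the shares was not tested.

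**Figure D2:**
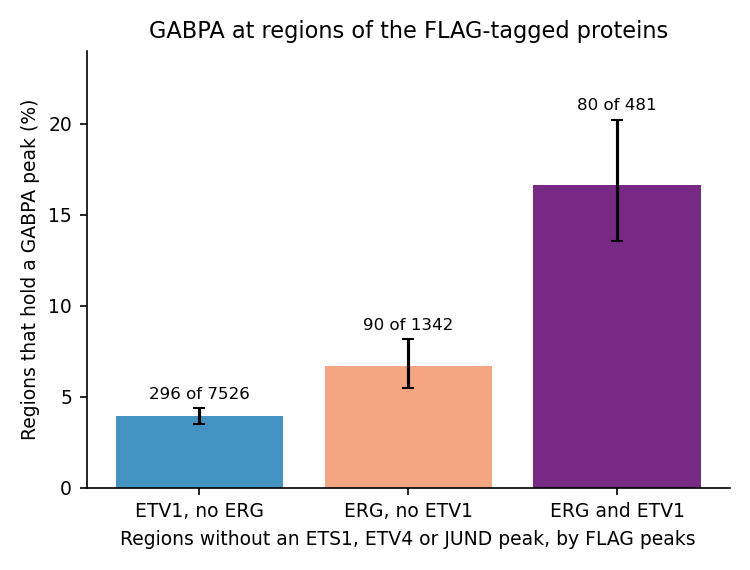
Percent of regions that hold a GABPA peak, among regions without an ETS1, ETV4 or JUND peak, by which FLAG-tagged protein has a peak there; bars are percentages, lines are Wilson 95% intervals, and counts are printed above. Regions with both ERG and ETV1 stand at 16.6%, above those with ERG (6.71%) or ETV1 (3.93%) without the other.

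Seen from the tagged proteins, 47.1% of the 170 ERG regions with GABPA also held ETV1 (39.7 to 54.5%), against 24.3% of the 1653 ERG regions without GABPA (22.3 to 26.4%). Of the 376 ETV1 regions with GABPA, 21.3% held ERG (17.4 to 25.7%), against 5.25% of the 7631 ETV1 regions without it (4.78 to 5.78%). These shares rearrange the counts of the preceding paragraph and add no separate support. The ETV1 peak overlapped the ERG peak itself in all 80 regions with the 3 peaks. GABPA overlapped the ETV1 peak directly in all but 1 of the 80 and the ERG peak in all but 4. Without shared edges, the share of ERG regions with GABPA that also held ETV1 was 45.5% (38.0 to 53.1%), and the share of ETV1 regions with GABPA that held ERG was 22.7% (18.5 to 27.5%).

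The rule set aside 126 of the 592 regions in which GABPA met ERG or ETV1, 104 of them for ETS1 alone and 22 for a PC3 factor. ETS1, like GABPA, was mapped at its endogenous level. An ETS1 peak was at 109 of the 592, 18.4% (15.5 to 21.7%), against 1.39% of the 7478 GABPA regions without ERG or ETV1 (1.15 to 1.68%). Of the 9737 ERG or ETV1 regions without GABPA, 3.71% held an ETS1 peak (3.35 to 4.10%). Most regions of these comparison sets held a peak of a single list. GABPA was alone in 7326 of the 7478, and ETV1 in 7230 and ERG in 1252 of the 9737. Each of the 592 joined peaks of different lists and so was a wider target for an overlap. How far this bears on the ETS1 shares was not tested. Leaving out regions with a PC3 peak, ETS1 was at 31.0% of the GABPA regions with both tagged proteins (23.3 to 39.9%). It was at 15.9% of those with ERG and no ETV1 (an interval of 10.2 to 23.98%) and at 14.7% of those with ETV1 and no ERG (11.4 to 18.8%). The first interval lay above the last and overlapped that of ERG without ETV1 by less than 1 percentage point. Regions without GABPA or a PC3 peak also had ETS1 most often where both tagged proteins were. There, 77 regions with both held ETS1 and 401 did not. For ERG and no ETV1 these counts were 60 and 1252, and for ETV1 and no ERG 182 and 7230. With GABPA, the counts were 51 and 296 for ETV1 and no ERG, and 17 and 90 for ERG and no ETV1. The 77 and 401 without GABPA were of a like proportion, so frequent ETS1 was not particular to regions with GABPA.

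The PC3 factors removed few regions. JUND, a subunit of AP-1, a factor that often binds next to ETS proteins, was at 8 of the 592, 1.35% (0.686 to 2.64%). It was at 3.57% of the 9737 ERG or ETV1 regions without GABPA (3.22 to 3.96%), and these intervals did not overlap. It was at 0.401% of the GABPA regions without ERG or ETV1 (0.281 to 0.572%). ETV4, which belongs with ETV1 to the PEA3 group of ETS proteins, was at 2.87% of the 592 (1.80 to 4.55%) and at 3.56% of the ERG or ETV1 regions without GABPA (3.21 to 3.95%). These ETV4 intervals overlapped, and both lay above the 0.388% of the GABPA regions without ERG or ETV1 (0.2702 to 0.556%). JUND and ETV4 were mapped in the other line, so these values compare positions across lines.

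The joined regions were short. Their median width was 637 bp (613 to 655 bp), and they ran from 364 to 1256 bp. Without shared edges the median was 654 bp (634 to 673 bp). Median widths were 607 bp for GABPA with ETV1, 655.5 bp for GABPA with ERG and 672.5 bp for all 3. GABPA peaks in the regions had a median width of 482 bp (477 to 485 bp), and GABPA peaks that overlapped no other list had 472 bp (471 to 473 bp). Without shared edges the first of these was 483 bp (478 to 485 bp). The regions were chosen by overlap, which width enters, so nothing is read from this difference.

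In the 80 regions with all 3 peaks, the median distance between midpoints of overlapping peaks was similar for each pair, and the intervals overlapped. It was 106.25 bp for ERG and ETV1 (71 to 157.5 bp), 104 bp for GABPA and ETV1 (87 to 170.5 bp; 123 bp without shared edges) and 129.75 bp for GABPA and ERG (98.5 to 187 bp). The pairs that did not overlap, 1 of GABPA and ETV1 and 4 of GABPA and ERG, are left out of these medians. In 401 regions with ERG and ETV1 and no other factor, their midpoints were 125.5 bp apart (113.5 to 140 bp), and the intervals overlapped. GABPA and ERG midpoints were 162.75 bp apart over 166 pairs (132.5 to 195 bp) and 194.25 bp in the regions without ETV1 (156 to 242.5 bp). For the same comparison, GABPA and ETS1 midpoints were 149.75 bp apart in 100 regions that held only these factors (114 to 180 bp).

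For GABPA and ETV1 the distance depended on the regions with a shared edge. Over all 375 pairs the median was 129.5 bp (111 to 147 bp), and 41.1% lay within 100 bp (36.2 to 46.1%). Without shared edges, 330 pairs gave 149.75 bp and 33.3% within 100 bp (28.5 to 38.6%), close to the 31.9% of the GABPA and ERG pairs (25.3 to 39.4%). Midpoints within 10 bp of each other numbered 39 among the 375 pairs and 5 among the 330. Of the 39, 34 were in regions with a shared edge.

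**Figure D3:**
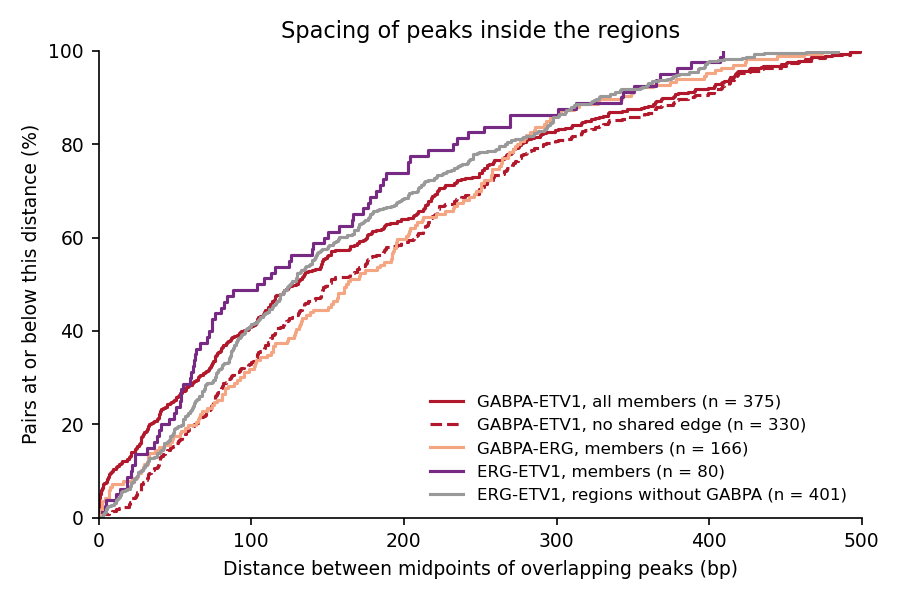
Cumulative percent of overlapping peak pairs against the distance between their midpoints in bp, for GABPA-ETV1 with and without the pairs that share an edge, GABPA-ERG and ERG-ETV1 in the 466 regions, and ERG-ETV1 in regions without GABPA. The solid GABPA-ETV1 line starts above the others near 0 bp, and the dashed line without shared edges (n = 330) does not.

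The arrangement of the 80 regions with all 3 peaks had no fixed order. The ETV1 midpoint lay between the others in 30 of them, the ERG midpoint in 28 and the GABPA midpoint in 20, with 2 ties. ERG and ETV1 were the nearest pair in 33 regions, GABPA and ETV1 in 25 and GABPA and ERG in 22. The 3 midpoints spanned a median of 203.25 bp (166 to 258 bp), and in 16 of the 80 they lay within 100 bp.

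The most closely stacked region of this class was on chromosome 20 at 43028117 to 43028635 (hg18, as all positions here), where the 3 midpoints spanned 31.5 bp. Its GABPA peak ran from 43028117 to 43028609, its ERG peak from 43028172 to 43028541 and its ETV1 peak from 43028141 to 43028635. None of these edges coincided. Next came chromosome 5, 140050910 to 140051433, with a span of 34.5 bp, and chromosome 9, 129381085 to 129381598, with 37 bp. Chromosome 17, 73851346 to 73851895, had a span of 52 bp. A pair of further chromosome 5 regions followed, 6431281 to 6431831 with 56.5 bp and 149958438 to 149958996 with 74 bp. The chromosome 9 region had a peak of each of the lists ERG, ETV1, ETS1, ETV4 and JUND outside it, all between 16784 and 17086 bp away. The chromosome 17 region had another GABPA peak 1539 bp away and another ETV1 peak 2047 bp away. Genes at these positions are not named, because the annotation used here is of another build, GRCh38.

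Among regions with GABPA and ERG, the midpoints were nearest on chromosome 12 at 119608784 to 119609283, 1 bp apart. In that region the ERG peak, 119608805 to 119609260, lay wholly inside the GABPA peak. On chromosome 14 at 66896035 to 66896528 the midpoints were 1.5 bp apart, and on chromosome 6 at 155095806 to 155096306 they were 2.5 bp apart. Their edges differed by at least 1 bp. Among regions with GABPA and ETV1 and no ERG, 13 tied at a distance of 0, and in each of them the peaks were the same interval. The first by position are named here. One of these ran from 108922830 to 108923279 on chromosome 2. The next were on chromosome 3, at 133861629 to 133862128 and at 158375200 to 158375657.

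At the edge of the rule, the GABPA peak met an ERG or ETV1 peak in 1 bp in 7 regions, and the first by position are named. On chromosome 1 at 152180809 to 152181793 the ETV1 peak ended on the first base of the GABPA peak. On chromosome 1 at 203899887 to 203900848 the GABPA and ETV1 peaks also met in 1 bp, but an ERG peak overlapped the GABPA peak by 180 bp. Just outside, a GABPA peak on chromosome 9 at 110364636 to 110365135 lay 9 bp from an ERG peak. Another on chromosome 20 at 7785603 to 7786081 lay 10 bp from an ETV1 peak. Overlaps of at most 50 bp with GABPA occurred in 26 of the 466 regions, and 22 of the GABPA regions that overlapped no list had an ERG or ETV1 peak within 100 bp.

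The regions were spread over all autosomes but chromosome 22, with 1 on X and none on Y. Over the 22 chromosomes with at least 100 GABPA regions, they made up between 0 and 8.62% of the GABPA regions, with a median of 5.02%. Chromosome 5 was highest, with 43 of 499, 8.62% (6.46 to 11.4%), followed by chromosome 20 with 44 of 546, 8.06% (6.06 to 10.6%), and chromosome 1 with 56 of 702, 7.98% (6.19 to 10.2%). Chromosome 22 had 0 of 139, which allows a share of up to 2.16% by the limit of 3 counts and 2.69% by the Wilson interval. It held 4 of the ERG and 89 of the ETV1 regions.

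Chromosome 5 differed in the class with all 3 peaks. These were 17 of its 499 GABPA regions, 3.41% (2.14 to 5.39%), against 63 of 7571 on all other chromosomes, 0.832% (0.651 to 1.06%). GABPA with ETV1 and no ERG made up 3.21% on chromosome 5 (1.98 to 5.14%) and 3.70% elsewhere (3.30 to 4.15%). The chromosome thus held 21.25% of the 80 regions with all 3 peaks and 6.18% of all GABPA regions. It also held 9.64% of the ERG regions and 7.49% of the ETV1 regions, so the lists behind the overlap were rich there too. Only 2 of its 43 regions had a shared edge. Chromosome 5 was singled out after its values were seen. Its regions with all 3 peaks were not in 1 place, and ran from 1686871 to 180603917.

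**Figure D4:**
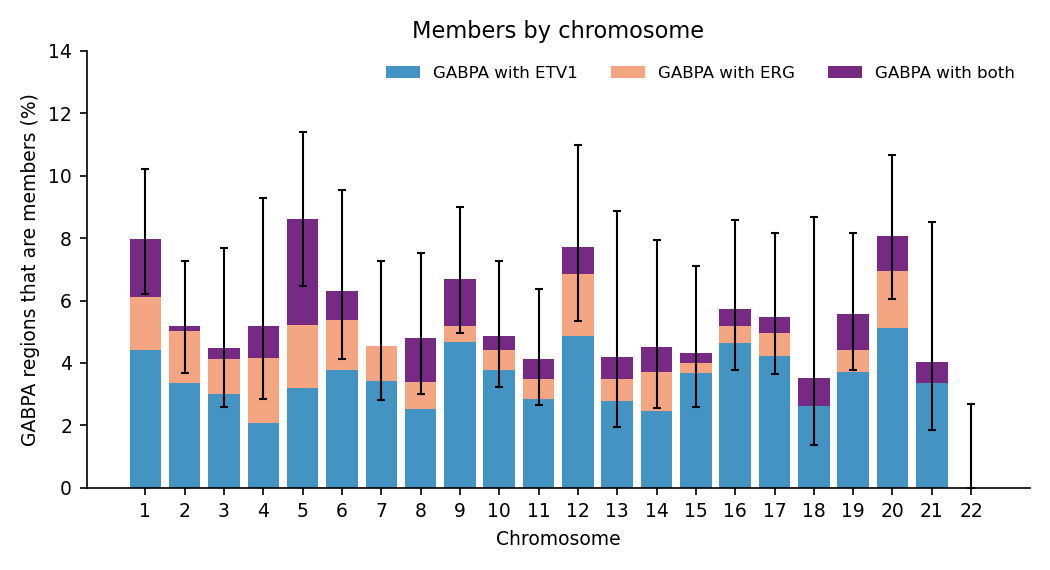
Percent of the GABPA regions on each chromosome that are among the 466 regions, stacked by class, for the 22 chromosomes with at least 100 GABPA regions; lines are Wilson 95% intervals of the total. Chromosome 5 is highest at 8.62%, with the largest part for GABPA with both proteins, and chromosome 22 has none.

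Most windows with such a region held 1. The regions fell into 367 windows of 1 Mb out of 1923 that held a GABPA region. Of these, 308 held 1 region and 59 held more, 158 regions together. One window, on chromosome 8, held 5, and 8 windows tied at 4, of which the first by position are named. The window at 109000001 to 110000000 of chromosome 1 had 4 among 10 GABPA regions, 1 of them with all 3 peaks. The adjoining windows from 134000001 to 136000000 of chromosome 9 had 4 among 23 and 4 among 32. All 4 in the second of these were GABPA with ETV1, while the first had each class.

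Over all lists, another peak was near these regions about as often as near all regions or GABPA regions that overlapped no list. A peak of any list, outside the region but within 10 kb, was found for 170 of the 466, 36.5% (32.2 to 40.9%), against 36.1% of all regions and 36.9% of the GABPA regions that overlapped no list (35.8 to 38.0%). The share was higher for regions with ERG alone, 45.9% (43.2 to 48.7%), and the intervals did not overlap. For regions with ETV1 alone it was 31.7% (30.6 to 32.8%). By list, the share within 10 kb differed for ETS1. An ETS1 peak lay within 10 kb of 8.58% of the regions (6.37 to 11.5%), against 4.91% of the GABPA regions that overlapped no list (4.44 to 5.43%), although the rule had removed every region with ETS1 itself. Without the regions with a shared edge the share was 8.08% (5.84 to 11.1%). The median distance to the nearest ETS1 peak was 158 kb (134 to 196 kb) against 263 kb (252 to 275 kb). By class it was 139 kb for GABPA with ETV1 (121 to 174 kb) and 171 kb for all 3 (92.8 to 312 kb). For GABPA with ERG it was 264 kb (166 to 356 kb). Only the GABPA with ETV1 class had an interval apart from that of the GABPA regions that overlapped no list. The same was true of the ETS1 share within 10 kb, which was 9.12% for GABPA with ETV1 (6.34 to 12.9%). It was 8.75% for all 3 (4.30 to 17.0%) and 6.67% for GABPA with ERG (3.09 to 13.8%). These classes had 296, 80 and 90 regions, and their intervals overlapped one another, so no class is set apart. Over all 466 regions, median distances were also shorter to ERG, 156 kb (126 to 184 kb) against 246 kb (233 to 258 kb), and to ETV1, 44.3 kb (36.8 to 51.8 kb) against 54.9 kb (52.6 to 57.2 kb). For GABPA, ETV4 and JUND the intervals of the median distances overlapped. In the 401 regions with ERG and ETV1 alone, 7.98% had ETS1 within 10 kb (5.71 to 11.0%), an interval that overlapped that of the regions with GABPA. For these 401 the median distance was 191 kb to ETS1 (144 to 244 kb) and 158 kb to ERG (117 to 193 kb). To ETV1 it was 48.1 kb (37.8 to 57.3 kb). Each of these intervals overlapped that of the 466 regions, so the shorter distances were not particular to regions with GABPA.

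For the remaining 5 lists the intervals of the share within 10 kb overlapped those of GABPA regions that met no list. Another GABPA peak lay within 10 kb of 15.7% (12.6 to 19.2%) against 18.9% (18.1 to 19.8%). ERG was within 10 kb of 5.15% (3.49 to 7.55%) against 5.12%, and ETV1 of 18.2% against 16.2%. ETV4 was near 4.72% (3.14 to 7.04%) and JUND near 4.29% (2.79 to 6.54%), against 3.21% and 4.04%. No JUND peak lay within 10 kb of the 90 regions with GABPA and ERG, which allows a share of up to 4.09% by the Wilson interval.

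The rows of the deposited GABPA file are in an order that no label describes, and the regions came early in it. The first 20% of its rows held 171 of the 466, so that 10.6% of these GABPA peaks belonged to the regions (9.19 to 12.2%). In the other 4 parts the shares were 4.28%, 4.46%, 4.40% and 5.14%. The median position of the 466 was 39.1% of the way through the file (31.03 to 44.4%). For the 100 regions with only GABPA and ETS1 it was 38.3% (23.99 to 53.4%), and these intervals overlapped. The early position was therefore not shown to be particular to the 466 regions. The median position was 22.2% of the way through the file for GABPA with ERG (16.53 to 30.5%), 25.5% for all 3 (7.79 to 41.6%) and 49.6% for GABPA with ETV1 (39.4 to 53.4%). GABPA peaks that overlapped no list had a median of 50.8%, a value that the interval of the regions with only GABPA and ETS1 also held. GABPA with ETV1 was nevertheless more frequent in the first part, at 5.82% of its rows (4.78 to 7.07%), than in the next, at 2.42% (1.77 to 3.29%). Without shared edges these shares were 4.58% (3.67 to 5.72%) and 2.23% (1.62 to 3.07%). In the last parts they were 3.35% (2.57 to 4.34%) and 3.28% (2.52 to 4.27%), which overlap the interval of the first part.

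**Figure D5:**
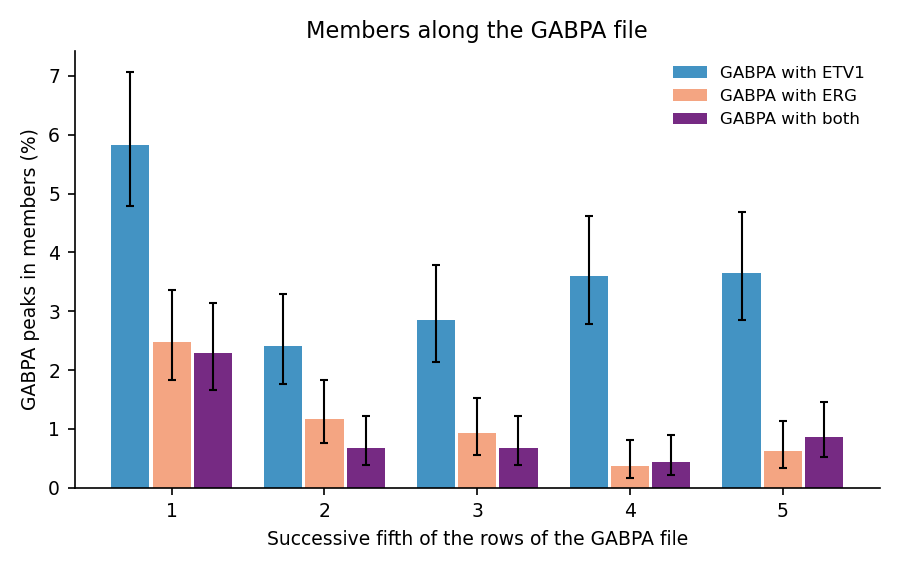
Percent of the GABPA peaks in each successive 20% of rows of the GABPA file that lie in the 3 classes of regions; bars are percentages and lines are Wilson 95% intervals. The first part is highest for each class, at 5.82% for GABPA with ETV1, 2.48% for GABPA with ERG and 2.29% for GABPA with both.

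Shared edges occurred in 22 of the 171 regions of the first part and in 23 of the 295 others. Whether they were more frequent in the first part was not tested. Without the regions with a shared edge, 9.23% of the first part's peaks belonged to the regions (7.91 to 10.7%). In later parts 3.97 to 4.71% of the peaks did. The GABPA file also runs by chromosome in places. Consecutive rows were on the same chromosome in 40.4% of cases in the first part and in 67.8 to 80.7% in later parts, against 7.35% over the ERG file and 5.63% over the ETV1 file. Ranked within its own chromosome, the median GABPA position of the 466 regions was 38.4% (31.1 to 44.3%), near the 39.1% over the whole file. In the ERG and ETV1 files the regions showed no such lean, with medians of 47.5% (37.2 to 57.3%) and 47.4% (43.2 to 51.4%).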

How the data were processed

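Chromatin was precipitated with the antibodies named in the report and sequenced, per the labels' protocols. Peak lists of 6 of the 9 libraries were used; both inputs and the FLAG control were not analysed here. Each deposited list holds a chromosome, a start and an end on hg18, per the labels, with no score, so the depth behind a peak is unknown. The sources used here name no peak caller, threshold or control. Starts were taken to count from 0, as in BED files, and are printed counted from 1. Peaks sharing at least 1 bp were joined across lists; the result equalled that of bedtools, and the functions were tested on simulated lists. Shares have Wilson 95% intervals and medians 95% order-statistic intervals over regions, which cover counting error only. With 1 library per factor no test was made.

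The regions and measures were chosen with earlier results of these data known. Named regions followed a rule: the 6 regions with 3 peaks and the nearest midpoints, the 3 nearest of each 2-factor class, 2 on each side of the overlap rule, and 3 of the fullest windows, with ties going to the first position. Chromosome 8 was counted and its regions were not named. Planned shares at promoters and with motifs were not run and no sequence is printed, as the tables used here are on GRCh38. The alternatives are listed with their effect in the closing section. Shared edges, the alternative without them and that without the first 20% of GABPA rows were chosen after seeing the data. Python 3.11.15 was used with pandas 2.3.3, numpy 2.4.6, scipy 1.17.1 and, for plots, matplotlib 3.10.9.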

Additional observations from a re-analysis of the deposited data

How the results depend on the processing

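Results here are counts and shares with no test. Setting peaks to 400 bp or leaving out X and Y moved none of the 10 values beyond its interval. The 466 regions became 169 with the first 50% of each file's rows and 295 without the first 20% of GABPA rows. Both settings kept fewer peaks, and the first 20% of GABPA rows had held 171 of the 466, 36.7%. Their share of GABPA regions, 5.77%, was 4.16% with a reciprocal overlap of 50%, 7.03% with a gap of up to 500 bp, 7.34% with ETS1, ETV4 or JUND regions kept, 4.19% with 50% of rows, 4.57% without the first 20% of GABPA rows and 5.25% without shared edges. The share with ETV1 was 67.5% with 50% of rows. The share with ERG was 43.2% with 50% of rows and 31.5% without the first 20% of GABPA rows. ETV1 was at 24.7% of ERG regions with GABPA with 50% of rows, still above the 12.1% of those without GABPA, and the same order held under the other 7 alternatives. The median GABPA to ETV1 distance was 79 bp with reciprocal overlap, 198 bp with the gap, 98 bp with 50% of rows and 149.75 bp without shared edges; that of GABPA to ERG was 103 bp with reciprocal overlap. The settings on overlap and gap bound these distances by construction. The median row position was 20.8% of the kept rows with 50% of rows, and 62.1% without the first 20% of GABPA rows, where positions below 20% cannot occur. The share with a neighbour within 10 kb was 20.7% with 50% of rows. A stricter peak threshold was not run, since the lists hold no score. No paired analysis was possible because each factor has 1 library. The unknown depth limits any reading of a missing peak.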

Other observations

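The shared edges of GABPA and ETV1 peaks were not limited to the 466 regions. Of the 103 overlapping GABPA and ETV1 pairs in regions that also held ETS1, ETV4 or JUND, 9 had the same start or end, 8.74% (4.67 to 15.8%). Within the 466 regions the share was 13.5% of the 296 pairs without ERG (10.1 to 17.9%) and 6.33% of the 79 pairs in regions with ERG (2.73 to 13.97%), and these intervals overlapped. Chromosomes 9 and 12 held the most regions with a shared edge, 5 each. In all 45 regions with a shared edge, 1 peak lay wholly inside the other or equalled it, as a shared edge requires. This occurred in 8 of the 330 pairs without one.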
